A study of Mus musculus with 12 samples.

Results

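The genes described are those that mouse phagocytes use to make and to limit reactive oxygen, nitric oxide and itaconate: Cybb, Cyba, Ncf1, Ncf4 and Rac2 of the phagocyte oxidase, the nitric oxide synthase Nos2, the itaconate enzyme Acod1 and the mitochondrial superoxide dismutase Sod2. They were taken by symbol, and all 8 were found among the 54532 genes of the count table. RNA was sequenced from CD11c-selected spleen cells of C57BL6 mice, prepared as dendritic cells (DCs), which take up microbes and show their antigens to T cells, by depleting cells that carry CD90.2, CD45R or CD49b before the selection. Libraries labelled SLC29A3-/- (called KO here, after their label) are described as from mice without a nucleoside transporter of lysosomes, and WT libraries as from wild-type mice. Treated cells received attenuated Salmonella typhimurium (STmDfla) at 10 bacteria per cell for 30 min and were then kept for 3 h without the bacteria in the medium, as the design text has it, whereas the treatment protocol gives a treatment of 3 h. The 4 groups were KO treated, KO untreated, WT treated and WT untreated, with 3 libraries in each, and the libraries carry the numbers 1, 2 and 3. Nothing in the labels gives the age of the mice or says that the 3 libraries of a group are 3 animals. Each p-value therefore weighs a difference against library-to-library spread that may be technical between numbers 2 and 3. Number 1 differs from them in Y-linked and Xist reads, so its RNA came from other mice and its spread is not only technical.

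The phagocyte oxidase is a membrane enzyme that passes electrons from NADPH to oxygen and so makes superoxide inside the phagosome. Its catalytic core is the heterodimer of gp91phox (Cybb) and p22phox (Cyba), and it is switched on when cytosolic subunits such as p47phox (Ncf1) and p40phox (Ncf4) and a Rac GTPase (Rac2 or Rac1) move to that core. Nos2 makes nitric oxide from arginine, Acod1 makes itaconate from cis-aconitate in mitochondria, and Sod2 turns superoxide into hydrogen peroxide in the mitochondrial matrix. Conventional DCs carry the oxidase, and in these cells it is known for its effect on phagosomal pH and so on the digestion of antigen.

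Gene counts summed to between 15693172 and 24074596 per library. Number 1 of each group held reads of Y-linked genes and hardly any of Xist (at most 1), whereas numbers 2 and 3 held Xist reads and 0 from Y-linked genes. On the first principal component, which held 39.5% of the variance, KO libraries of number 1 lay at 26.9 and 32.6, the other KO libraries between 58.5 and 66.7, and WT libraries between -64.8 and -45.8. Slc29a3 was counted in all libraries, at 124 to 191 CPM (counts scaled to library size with TMM factors) in KO treated, 63.5 to 94.0 in KO untreated, 197 to 233 in WT treated and 99.2 to 110.2 in WT untreated libraries. The labels do not say which part of the gene is deleted, so a count over the whole gene does not check the genotype. All 5 general DC markers, 8 cDC1 markers and 7 cDC2 markers were above 0 in all libraries. The summed level of the general DC markers was lower in KO libraries, at 17952 to 21039 CPM treated against 26102 to 30448 CPM in WT treated, and at 13843 to 19205 CPM untreated against 21715 to 22788 CPM in WT untreated libraries. That sum joins Zbtb46, Flt3, Itgax and the MHC class II genes H2-Aa and Cd74 without weights. It does not show which of them were lower, and it is not a measure of the share of DCs.

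Markers of other cells differed between the genotypes. The summed level of 10 neutrophil markers was 92.0 to 1138 CPM in KO treated, 62.8 to 815 in KO untreated, 12.0 to 20.7 in WT treated and 8.46 to 13.3 in WT untreated libraries. The sum of 7 monocyte markers was 367 to 838 CPM in KO treated, 393 to 772 in KO untreated, 211 to 228 in WT treated and 105 to 164 in WT untreated libraries. KO libraries also had the higher sums of 6 erythroid markers, at 1883 to 5203 CPM against 2.82 to 10.2 in WT libraries. For 8 red pulp macrophage markers the sums were 835 to 2835 CPM in KO treated and 341 to 649.6 in WT treated libraries, and 838 to 2621 in KO untreated and 506 to 971 in WT untreated libraries, where they overlapped. No neutrophil, monocyte, macrophage or erythroid marker was at 0 in all libraries of a group. Sums of B cell markers overlapped between the groups, at 12.6 to 94.96 CPM in KO treated and 12.3 to 79.9 in WT treated libraries, and T cell sums stayed at or under 14.0 and NK cell sums at or under 2.82 CPM. Sums of 7 plasmacytoid DC markers were higher with bacteria without overlap, at 97.1 to 186 CPM in KO treated and 59.6 to 78.7 in KO untreated, and 94.0 to 102 in WT treated and 48.4 to 58.1 in WT untreated libraries. All 7 were above 0 in every KO library, but only 5 in every WT treated and 6 in every WT untreated library. Klk1, one of the 7, was at 0 in all WT treated libraries, so the higher sum was not shared by every marker. Sums of cDC2 markers were 859 to 1061 CPM in KO treated and 664 to 997 in KO untreated libraries, which overlapped, and 1034 to 1248 in WT treated and 559.7 to 722 in WT untreated libraries, which did not. In whole-population RNA, fewer cells of a type and less RNA per cell cannot be told apart. The part of these cells in the genotype differences and responses below was not tested.

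**Figure D1:**
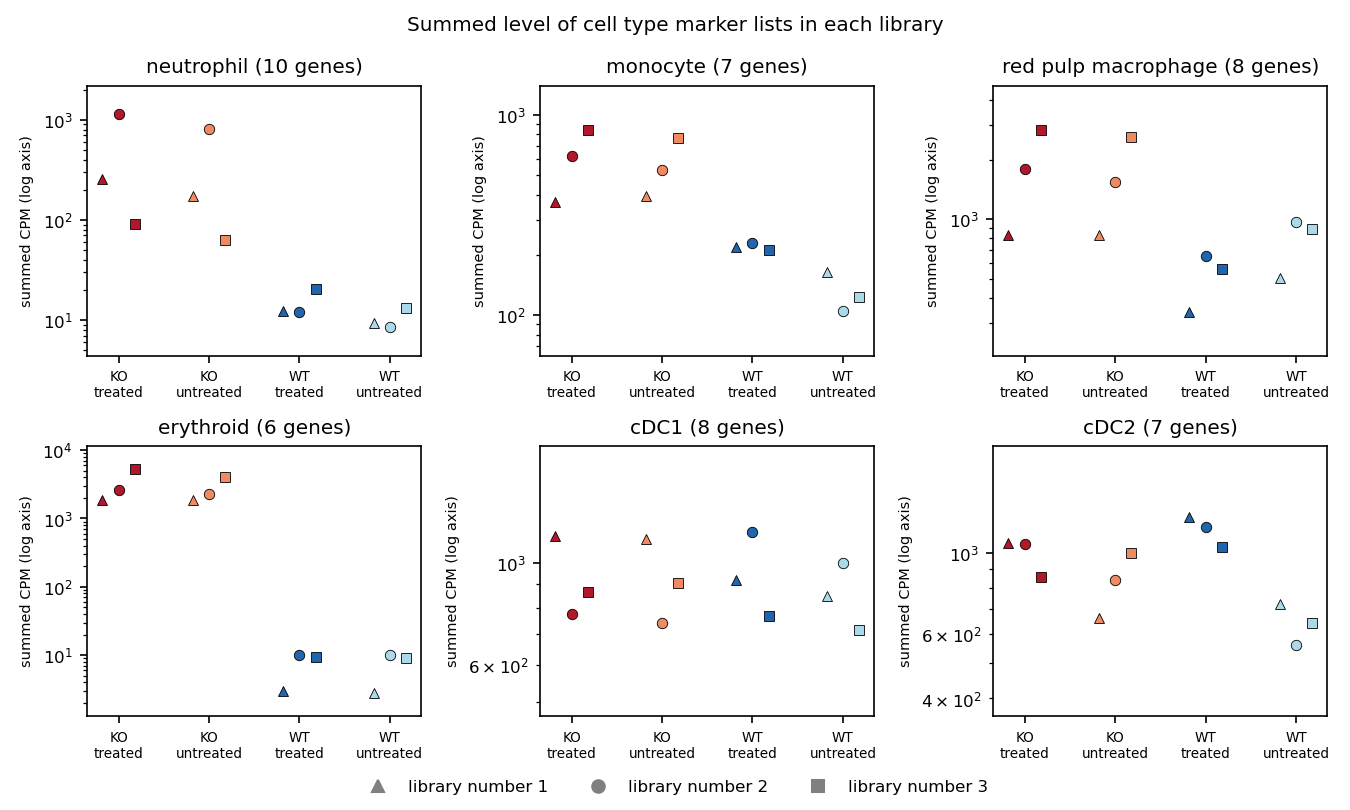
Summed CPM of 6 marker lists (log axes) in the 12 libraries, by group from KO treated on the left to WT untreated on the right, with 1 symbol per library number. Neutrophil, monocyte and erythroid sums of all KO libraries lie above those of all WT libraries of the same treatment, whereas the cDC1 and cDC2 sums overlap between the genotypes.

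The promoters of the 4 genes that were higher after bacteria in KO cells, and that of Cyba as one that did not pass the test, are shown. They were chosen because 3 of them match the interferon or NF-kB letters given below. Other spellings of such sites were not searched, so a promoter without a match may still hold one. The sequences are from RefSeq on GRCm38.p6 (mm10), from 250 bases before the RefSeq start site, 5′ to 3′ on the gene's strand. Bases that the GENCODE annotation places in an exon were left off the end, so that Acod1 stops 36 and Sod2 23 bases before the start. Capitals mark matches to the motifs given after the sequences. Cybb is chrX:9469325-9469574 (minus strand), Ncf1 chr5:134229626-134229875 (minus), Acod1 chr14:103046762-103046976 (plus), Sod2 chr17:13007589-13007816 (plus) and Cyba chr8:122432941-122433190 (minus).
Cybb: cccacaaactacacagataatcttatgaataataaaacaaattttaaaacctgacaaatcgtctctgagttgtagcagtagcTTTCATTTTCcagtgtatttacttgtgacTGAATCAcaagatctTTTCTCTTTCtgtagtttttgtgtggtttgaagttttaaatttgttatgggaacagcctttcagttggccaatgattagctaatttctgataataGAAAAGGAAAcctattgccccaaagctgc
Ncf1: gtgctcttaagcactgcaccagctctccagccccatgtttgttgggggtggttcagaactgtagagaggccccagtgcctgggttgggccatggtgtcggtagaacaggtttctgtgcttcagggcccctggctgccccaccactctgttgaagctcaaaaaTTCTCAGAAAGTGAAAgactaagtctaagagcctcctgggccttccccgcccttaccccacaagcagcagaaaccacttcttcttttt
Acod1: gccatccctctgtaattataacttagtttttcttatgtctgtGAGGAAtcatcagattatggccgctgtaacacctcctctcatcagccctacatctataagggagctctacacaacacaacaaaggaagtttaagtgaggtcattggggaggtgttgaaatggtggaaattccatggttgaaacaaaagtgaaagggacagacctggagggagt
Sod2: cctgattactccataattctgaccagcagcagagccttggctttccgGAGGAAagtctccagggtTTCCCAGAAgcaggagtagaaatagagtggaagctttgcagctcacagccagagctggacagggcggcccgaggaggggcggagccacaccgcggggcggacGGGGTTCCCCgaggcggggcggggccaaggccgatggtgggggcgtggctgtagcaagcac
Cyba: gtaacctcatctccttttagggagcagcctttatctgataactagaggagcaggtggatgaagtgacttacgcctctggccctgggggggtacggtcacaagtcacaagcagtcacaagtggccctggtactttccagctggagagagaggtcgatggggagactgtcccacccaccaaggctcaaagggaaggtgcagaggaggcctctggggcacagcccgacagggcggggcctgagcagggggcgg

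The 250 bases before each start, including those not printed, were searched on both strands for the interferon-stimulated element core (GAAA and GAAA parted by any 2 bases), the interferon site GAS, TTCNNNGAA, the AP-1 site TGANTCA, the PU.1 core GAGGAA and the NF-kB consensus. Of 32851 RefSeq promoters, each over the 250 bases before its start, 2.98%, 7.02%, 6.75%, 23.3% and 7.25% held them, in that order. These shares are over promoters of any base composition. G and C made up 34% of the Cybb window, 54.4% of Ncf1, 44.4% of Acod1, 63.6% of Sod2 and 60% of Cyba. The Cybb window held 3 matches to the interferon-stimulated core, at 168 to 159, 124 to 115 and 29 to 20 bases before the start, and 1 AP-1 match at 139 to 133. The Ncf1 window held a GAS match at 88 to 80 that shares bases with an interferon-stimulated core at 82 to 73. In the Sod2 window an NF-kB match stood at 83 to 74, a GAS match at 185 to 177 and a PU.1 match at 203 to 198. The printed Sod2 stretch lies inside the table's Sod2 gene, which begins at chr17:13006846, so these matches are not upstream of the counted gene. The Acod1 window held a PU.1 match at 208 to 203, and the Cyba window held no match to these letters. A match describes letters only and is not evidence of binding.

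Compared per length, in TPM (length-scaled abundance) over groups of 3 libraries, Cyba had the highest level of the 7 tested members in every group. Its mean was 936 TPM in KO treated, 1168 in KO untreated, 822 in WT treated and 1109 in WT untreated cells, above at least 98.8% of the tested genes. Ncf1 averaged 337 TPM in KO treated, 199 in KO untreated, 367 in WT treated and 234 in WT untreated cells. Ncf4 lay between 207 TPM in KO treated and 317 TPM in WT untreated cells. Acod1, by contrast, stood at 323 TPM in KO treated, 17.2 in KO untreated, 63.4 in WT treated and 5.12 in WT untreated cells, the last of the 7 in both untreated groups. Sod2 stayed between 15.2 and 39.0 TPM. On mm10, as the deposited table gives it, Cyba spans chr8:122424776-122432930 (minus strand), Ncf1 chr5:134220053-134229625 (minus), Ncf4 chr15:78244801-78262580 (plus), Rac2 chr15:78559167-78572783 (minus), Nos2 chr11:78920787-78960254 (plus), Acod1 chr14:103046977-103056573 (plus) and Sod2 chr17:13006846-13040063 (plus).

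**Figure D2:**
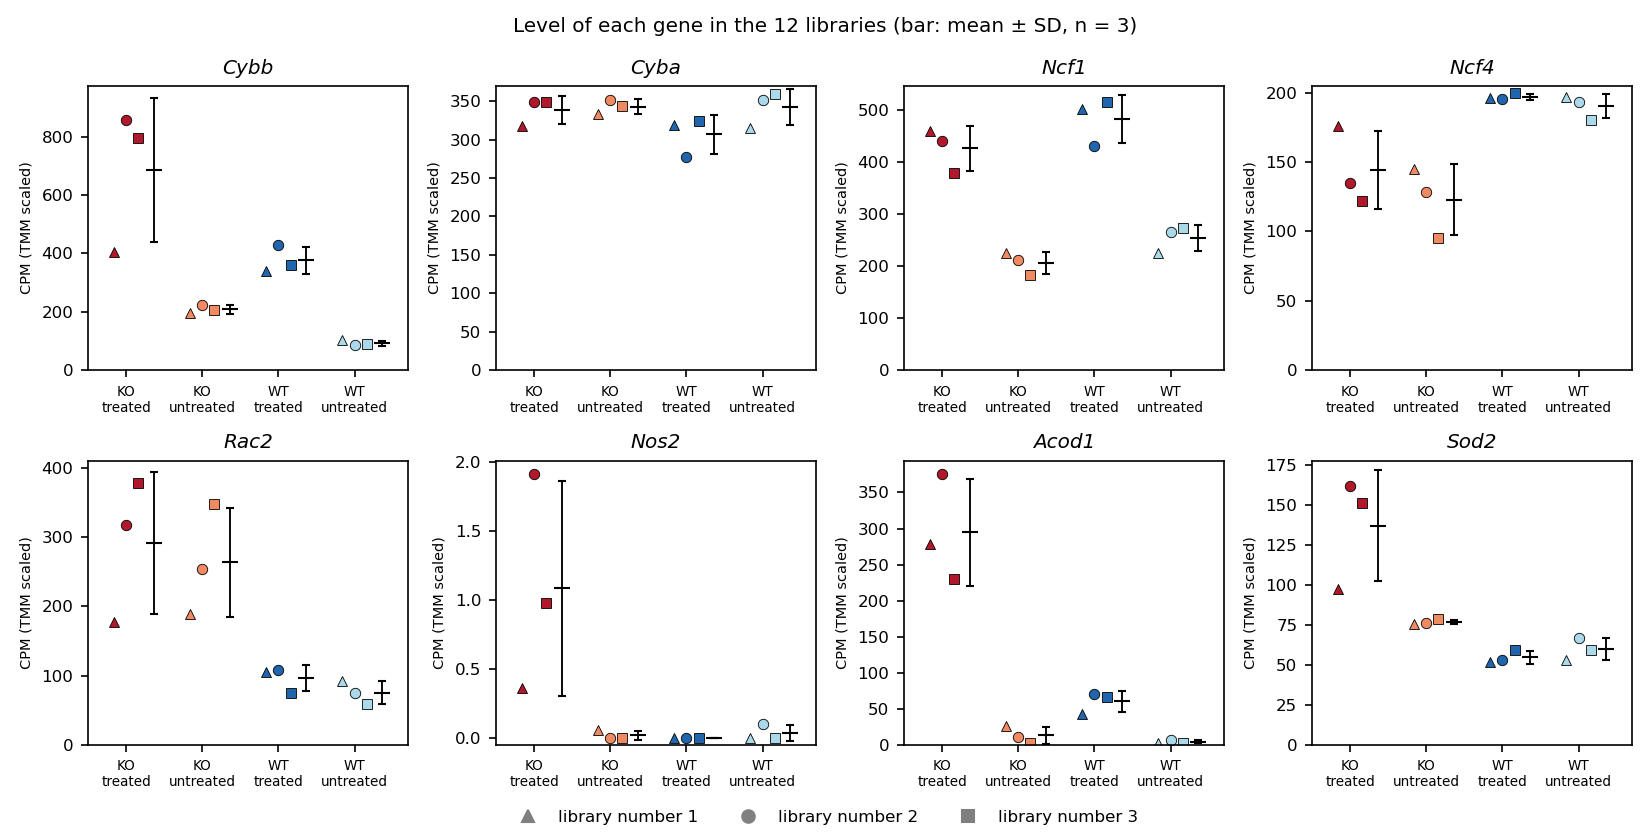
Level of each member in the 12 libraries, in CPM on linear axes that differ between genes. Groups run from KO treated to WT untreated, each symbol is 1 library by number and bars give the mean ± SD (n = 3). Treated libraries lie above untreated ones of the same genotype for Cybb, Ncf1 and Acod1, and Cyba is nearly level.

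After bacteria, 4 of the 7 tested members were higher in KO treated than in KO untreated cells (Acod1, Cybb, Ncf1 and Sod2) and none was lower, where 11.6% of all tested genes were called higher and 11.5% lower. In WT cells 3 of 7 were higher (Acod1, Cybb and Ncf1) and none lower, where 10.6% of all tested genes were called higher and 8.07% lower. A call is an adjusted p under 0.05 in edgeR's quasi-likelihood test over 14293 genes. Nos2 did not pass the filter on low counts and is given by its counts. KO cells exceeded WT cells after bacteria in 4 of 7 members (Acod1, Rac2, Sod2 and Cybb), where 9.21% of all genes were called higher, and none was called lower, where 4.89% were. In the same comparison without KO treated library 2, or without library 3, only 2 members were called there (Rac2 and Sod2). In untreated cells KO exceeded WT in 2 of 7 members (Rac2 and Cybb) and fell below it in 1 (Ncf4), where 9.50% and 3.46% of all genes were called. All libraries of one group lay above those of the other for 4 of 7 members in the KO response (17.7% of all tested genes). There 0 lay below, against 22.6% of all tested genes. In the WT response 3 lay above (19.0%) and 0 below (19.9%). KO against WT, 3 lay above after bacteria (15.6%) and 1 below (13.2%), and untreated 3 lay above (21.0%) and 2 below (16.4%). The comparisons share libraries in pairs, so that KO treated cells enter both the KO response and the difference from WT treated cells. The median log2 fold change over all tested genes lay between -0.07 and 0.01 in the 4 comparisons.

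**Figure D3:**
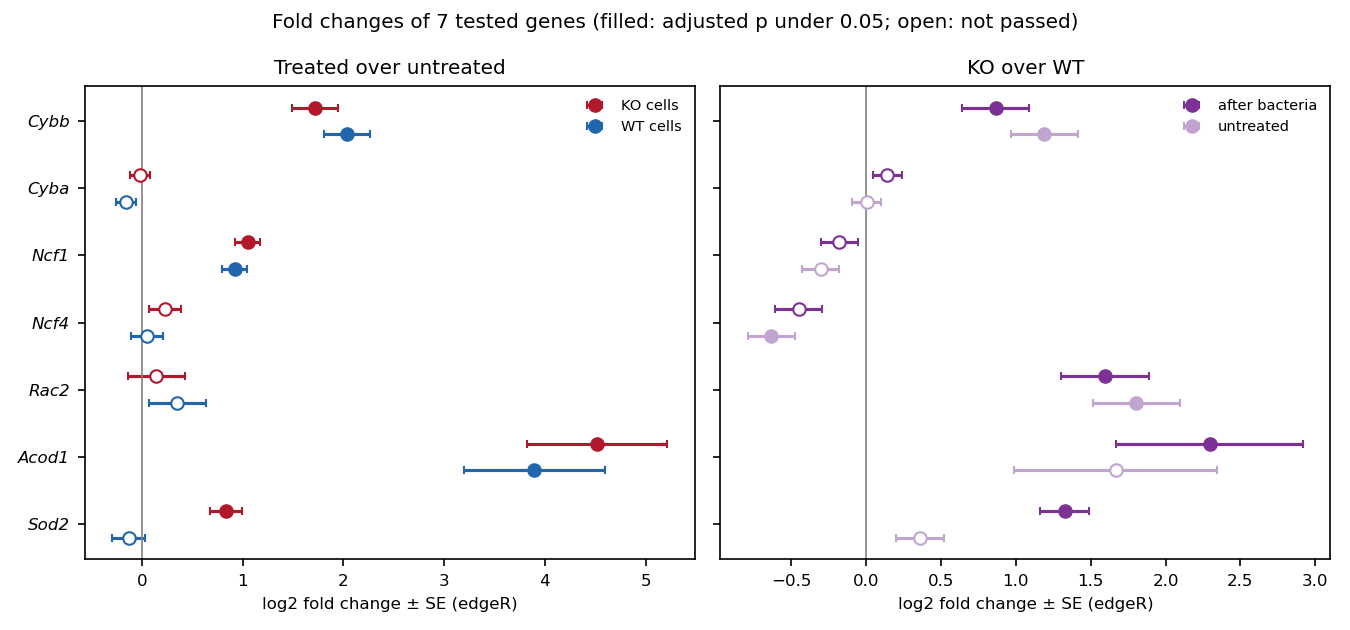
Log2 fold change of the 7 tested members with its standard error, for the responses to bacteria in KO and WT cells and for KO against WT cells after bacteria and untreated. Filled symbols passed an adjusted p of 0.05 in edgeR. Acod1 has the largest response in both genotypes, and Rac2 passes the test between genotypes at both treatments and in neither response to bacteria.

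Cybb encodes the flavocytochrome that carries electrons across the membrane, and its gene lies on chromosome X (mm10, 9435252 to 9487771, minus strand), where the RefSeq start site of the printed promoter falls inside the table's gene. Its level was 404, 858 and 795 CPM in KO treated libraries, against 194, 224 and 207 CPM in KO untreated ones. In WT cells it was 339, 428 and 362 CPM in treated libraries, against 102, 84.8 and 88.0 CPM in untreated ones. Every treated library lay above every untreated library of its genotype. The log2 fold change with bacteria was 1.72 ± 0.23 (SE) in KO cells, or 3.29-fold, with an edgeR adjusted p of 0.00022. In WT cells it was 2.04 ± 0.23, or 4.11-fold, with an adjusted p of 9.8e-05. The difference between these responses was -0.32 ± 0.31, with an adjusted p of 1.00 in edgeR.

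Untreated KO libraries also lay above all untreated WT libraries in Cybb, by 1.19 ± 0.22 on the log2 scale (adjusted p = 0.00496, edgeR). After bacteria the genotypes overlapped, since KO treated library 1 at 404 CPM lay below WT treated library 2 at 428 CPM. The fitted difference was 0.86 ± 0.22 (adjusted p = 0.0237, edgeR), and leaving out KO treated library 2 gave 0.67 with an adjusted p of 0.102. The call was also lost without KO treated library 3 (0.75, adjusted p = 0.0943), WT treated library 1 (0.79, adjusted p = 0.066) or WT treated library 3 (0.83, adjusted p = 0.0829). Between libraries of number 1 the difference in treated cells was 0.25, against a mean of 1.07 for numbers 2 and 3, and in untreated cells 0.93 against 1.32. The labels do not match KO with WT libraries by number. Neutrophil marker sums of KO libraries 1, 2 and 3 were 257, 1138 and 92.0 CPM treated, and 175, 815 and 62.8 CPM untreated. Library 2 had the highest Cybb and the highest sum at both treatments, whereas library 3 had the lowest sum and more Cybb than library 1. Monocyte sums of KO libraries 1, 2 and 3 were 367, 627 and 838 CPM treated, and 393, 533 and 772 CPM untreated. Red pulp macrophage sums were 835, 1803 and 2835 CPM treated, and 838, 1549 and 2621 CPM untreated. Both were lowest in library 1, which also had the lowest Cybb, and highest in library 3. The part of these cells in Cybb was not tested.

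Cyba makes p22phox, the partner that keeps gp91phox stable, and overlaps Gm20388 on the opposite strand, which had 0 counts. It measured 318, 349 and 349 CPM in KO treated libraries, against 333, 352 and 344 CPM in KO untreated ones. WT treated libraries had 319, 278 and 324 CPM, against 315, 352 and 359 CPM in WT untreated ones. The groups overlapped in each of the 4 comparisons. No comparison of Cyba passed the test, with log2 differences of -0.02 ± 0.10 in KO cells and -0.16 ± 0.10 in WT cells after bacteria. KO less WT was 0.14 ± 0.10 in treated and 0.00 ± 0.10 in untreated cells (SE).

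The ratio of the core partners differed between groups. Within a library the TPM of Cybb over that of Cyba was 0.358 ± 0.114 in KO treated, 0.109 ± 0.005 in KO untreated, 0.222 ± 0.047 in WT treated and 0.0482 ± 0.0082 in WT untreated cells (SD, n = 3 each). Treated cells were above untreated ones in each genotype with no overlap, and untreated KO cells were above untreated WT cells. In treated cells the ranges overlapped, at 0.227 to 0.439 in KO and 0.190 to 0.276 in WT libraries.

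**Figure D4:**
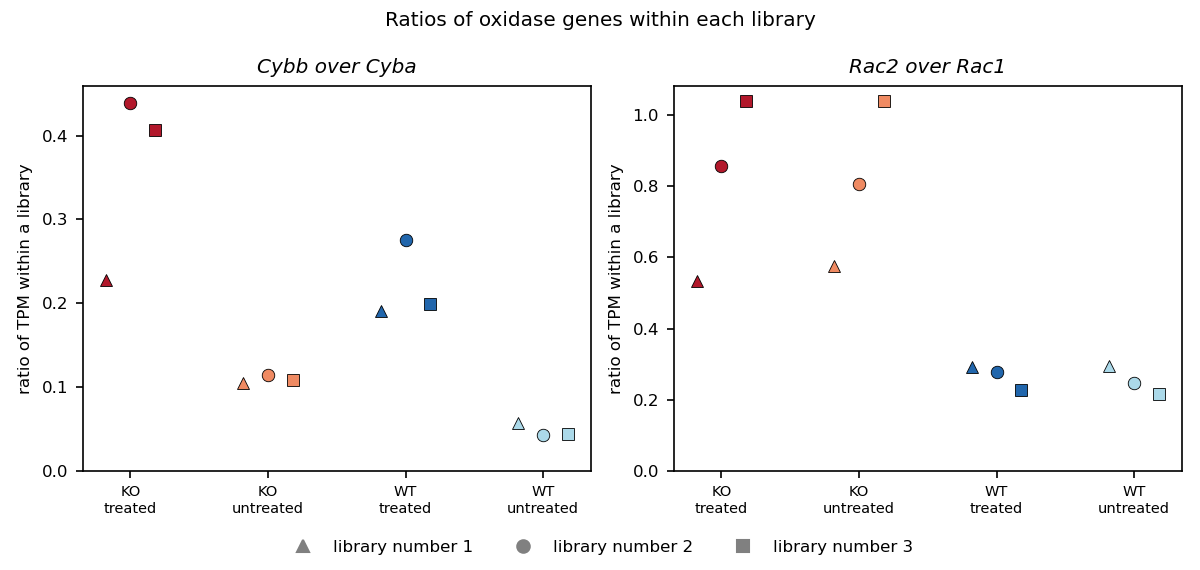
Ratio of TPM within each library for Cybb over Cyba and for Rac2 over Rac1, by group from KO treated to WT untreated, with 1 symbol per library number. The Cybb ratio is higher in treated than in untreated libraries of each genotype, and the Rac2 ratio is higher in KO than in WT libraries at either treatment.

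Ncf1 encodes p47phox, the organizer that carries the cytosolic complex to the membrane. It reached 461, 442 and 379 CPM in KO treated libraries, against 225, 211 and 183 CPM in KO untreated ones. In WT cells the values were 502, 430.5 and 517 CPM in treated libraries, against 226, 266 and 273 CPM in untreated ones. Treated and untreated libraries did not overlap in either genotype. The log2 fold change was 1.05 ± 0.12 in KO cells (adjusted p = 8.62e-05) and 0.92 ± 0.12 in WT cells (adjusted p = 0.000314, edgeR). Both calls held under all 22 other settings. KO less WT did not pass the test, at -0.18 ± 0.12 after bacteria (adjusted p = 0.366) and -0.30 ± 0.12 untreated (adjusted p = 0.134, edgeR), where all KO libraries lay below the WT ones, by the least margin for number 1. Ncf1 overlaps Gtf2ird2 on the opposite strand, which had 4097 counts in all libraries against 72318 of Ncf1, and without the strand setting of the counting their reads cannot be told apart.

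Ncf4 makes p40phox, which binds the phosphoinositide of the phagosome membrane. It had 176, 135 and 122 CPM in KO treated libraries, against 145, 128 and 94.8 CPM in KO untreated ones. WT libraries lay higher, at 196, 195 and 199 CPM treated, against 197, 193 and 180.4 CPM untreated. No KO library reached the WT libraries of the same treatment. Ncf4 did not pass the test with bacteria, at 0.23 ± 0.16 in KO and 0.05 ± 0.16 in WT cells on the log2 scale. Untreated KO cells fell below untreated WT cells by -0.63 ± 0.16 (adjusted p = 0.02, edgeR).

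That untreated call of Ncf4 was lost without KO untreated library 2 (-0.70, adjusted p = 0.0523) or 3 (-0.52, adjusted p = 0.0738), and without WT untreated library 1 (-0.65, adjusted p = 0.0526) or 2 (-0.66, adjusted p = 0.0551, edgeR). After bacteria the difference was -0.45 ± 0.16 with an adjusted p of 0.0755, and it passed the test without KO treated library 1 (-0.62, adjusted p = 0.0163). With the library number as a block over all groups it was -0.47, with an adjusted p of 0.0196. KO library 3, which had the lowest Ncf4 in both treatments, had the highest sums of monocyte, red pulp macrophage and erythroid markers.

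Rac2 encodes the Rac GTPase of blood cells that activates the oxidase. Its level was 178, 318 and 378 CPM in KO treated libraries, against 105, 109 and 75.3 CPM in WT treated ones. Untreated libraries had 189, 254 and 347 CPM in KO, against 92.1, 75.3 and 58.7 CPM in WT. Every KO library lay above every WT library. KO less WT was 1.60 ± 0.29 on the log2 scale after bacteria, or 3.02-fold (adjusted p = 0.00459), and 1.81 ± 0.29 untreated, or 3.50-fold (adjusted p = 0.00246, edgeR). Both calls held in all 21 other settings.

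The genotype difference of Rac2 was not the same in all numbers, at 0.76 between treated libraries of number 1, 1.55 of number 2 and 2.33 of number 3, and at 1.04, 1.75 and 2.56 in untreated ones. The labels do not match KO with WT libraries by number. The KO libraries followed the same order in their sums of monocyte and red pulp macrophage markers. With bacteria Rac2 changed by 0.14 ± 0.28 in KO cells (adjusted p = 0.764) and by 0.35 ± 0.29 in WT cells (adjusted p = 0.422, edgeR). With the number as a block within genotype the WT value was 0.36 with an adjusted p of 0.0163. TPM of Rac2 over that of its paralog Rac1 was 0.810 ± 0.257 in KO treated and 0.266 ± 0.034 in WT treated cells, and 0.808 ± 0.233 in KO untreated and 0.253 ± 0.040 in WT untreated cells (SD, n = 3 each).

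Acod1 encodes the enzyme that diverts cis-aconitate to itaconate, a metabolite with antibacterial effect in phagocyte vacuoles. It stood at 279, 375 and 229 CPM in KO treated libraries, against 25.9, 10.8 and 2.04 CPM in KO untreated ones. WT libraries had 42.9, 70.8 and 66.3 CPM treated, against 2.98, 6.61 and 2.44 CPM untreated. Treated cells lay above untreated cells without overlap in each genotype, and treated KO libraries lay above all treated WT libraries. The response was 4.52 ± 0.69 on the log2 scale in KO cells, or 23.0-fold (adjusted p = 0.00078), and 3.89 ± 0.70 in WT cells, or 14.9-fold (adjusted p = 0.00311, edgeR). Without KO untreated library 1 the KO response was 5.56 on the log2 scale. The difference between these responses was 0.63 ± 0.90 (adjusted p = 1.00, edgeR).

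KO exceeded WT cells in Acod1 after bacteria by 2.29 ± 0.62 on the log2 scale, or 4.90-fold (adjusted p = 0.0315, edgeR). Leaving out any 1 of the 6 treated libraries ended that call, with differences from 2.08 to 2.45 and adjusted p from 0.051 to 0.0921. The difference was positive for all 3 numbers, at 2.69, 2.40 and 1.79. Of the untreated KO libraries 2 lay above and 1 below all untreated WT libraries, and the difference of 1.67 ± 0.68 did not pass the test (adjusted p = 0.138). Without KO untreated library 3 it was 2.14 with an adjusted p of 0.0189, and without KO untreated library 1 it was 0.60 with an adjusted p of 0.569 (edgeR). By number, which the labels do not match between genotypes, the untreated difference was 3.08, 0.69 and -0.26, so its sign was not shared by all numbers. Of the treated KO libraries number 2 had the highest Acod1 and neutrophil marker sum, whereas untreated the highest Acod1 was in number 1 and the highest sum in number 2. Monocyte and red pulp macrophage sums were highest in KO library 3 at both treatments, which had the lowest Acod1 of its group. The part of these cells in Acod1 was not tested.

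Nos2, the inducible synthase, had few reads. It had 6, 33 and 14 counts in KO treated libraries, against 1, 0 and 0 counts in KO untreated ones. WT libraries had 0, 0 and 0 counts treated, against 0, 2 and 0 counts untreated. Each treated KO library thus held more Nos2 reads than any other library. Scaled by library size, the sum of 53 counts in KO treated cells was 64.0 times that of the 1 count in KO untreated cells, with a 95% interval from 11.0 to 2574 that covers counting error only. Against WT treated cells it was at least 19.2-fold higher, computed from a floor of 3 counts over the group, which is 0.0572 CPM there and compares with 1.10 CPM in KO treated cells. The first ratio was 86.8 without KO treated library 1 and 37.6 without KO treated library 2, and 43.4 and 41.3 without KO untreated library 2 or 3. Without KO untreated library 1 no count was left in that group, and KO treated cells were at least 15.0-fold higher, from the same floor of 3 counts over the group. The bound against WT treated cells ran from 11.3 (without KO treated library 2) to 26.1 (without KO treated library 1). It was 14.0, 12.9 and 11.5 without WT treated library 1, 2 or 3.

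With no filter on low counts, edgeR gave Nos2 an adjusted p of 0.00392 for the response in KO cells and of 0.00327 for KO against WT treated cells, among 26557 genes. A response in WT cells was not detectable at this depth. In that fit the difference between the KO and WT responses had an unadjusted p of 0.00357 in edgeR and did not pass after adjustment.

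Sod2, the manganese superoxide dismutase of mitochondria, had 97.5, 162 and 151 CPM in KO treated libraries, against 75.7, 76.1 and 78.4 CPM in KO untreated ones. WT treated libraries had 51.9, 52.7 and 59.2 CPM, against 52.8, 67.0 and 59.4 CPM in WT untreated ones. Treated KO libraries were above all others, and the 2 WT groups overlapped. Sod2 rose with bacteria by 0.84 ± 0.16 on the log2 scale in KO cells (adjusted p = 0.00306), and the WT value was -0.13 ± 0.16 (adjusted p = 0.624, edgeR). KO exceeded WT by 1.33 ± 0.17 after bacteria, or 2.51-fold (adjusted p = 0.00057, edgeR), a call that held in all 21 other settings. In untreated cells KO less WT was 0.36 ± 0.16 (adjusted p = 0.18), although every KO library lay above every WT library. That untreated difference was 0.35 with an adjusted p of 0.0426 without KO treated library 1, which is in neither group of that comparison.

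The KO response of Sod2 exceeded the WT response by 0.97 ± 0.23, with an unadjusted p of 0.00119 and an adjusted p of 1.00 in edgeR. Without KO treated library 1 the difference was 1.17 with an adjusted p of 0.031. By number the KO response was 0.36, 1.09 and 0.95, and the WT response -0.02, -0.35 and -0.01. Over all genes, 0 of 14293 passed for the difference between responses in edgeR, 608 had an unadjusted p under 0.05, and DESeq2 called 6.

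The other genes of these pathways were read from 6 lists of 117 symbols, of which 102 were tested. With bacteria, 11.6% of all tested genes were called higher and 11.5% lower in KO cells, and 10.6% and 8.07% in WT cells. KO against WT, 9.21% were called higher and 4.89% lower after bacteria, and 9.50% and 3.46% untreated. Whether any list differed from these shares was not tested. Among 19 oxidase partners, 1 was higher and 3 lower with bacteria in each genotype, with list medians of 0.03 in KO and -0.11 in WT cells beside -0.07 and -0.04 over all genes. Rap1b, a small GTPase, rose by 0.94 ± 0.15 in KO and 0.96 ± 0.15 in WT cells. Its paralog Rap1a, in the same list, was not called with bacteria. Mean levels of Rap1a were 161 CPM in KO treated and 151 in KO untreated, and 205 in WT treated and 164 in WT untreated cells. Rubcn, needed for the oxidase in LC3-associated phagocytosis, fell by -1.26 ± 0.22 in KO and -1.08 ± 0.22 in WT cells, and Pik3cg, a phosphoinositide kinase of leukocytes, by -0.75 ± 0.16 and -0.70 ± 0.16 (adjusted p at most 0.011, edgeR). KO against WT, 4 partners were higher after bacteria and 3 untreated, and none was lower. S100a8 and S100a9, which bind the activated oxidase and are also neutrophil markers, were among them, and without them the counts were 2 and 1. Prkcb, a kinase of p47phox, was higher in untreated KO cells by 0.75 ± 0.15 (adjusted p = 0.00551, edgeR). After bacteria the number of partners called higher was 2 without KO treated library 2 or 3 and 1 without WT treated library 2 or 3. Untreated it was 1 without any one of the WT untreated libraries, and 5 without KO untreated library 1.

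Of 13 tested genes of nitric oxide and arginine metabolism, 4 were higher and 3 lower with bacteria in KO cells. Over all tested genes these shares were 11.6% and 11.5%. In WT cells 3 were higher and 2 lower, beside 10.6% and 8.07% of all tested genes. The list medians were 0.27 in KO and -0.05 in WT cells. In KO cells 2 were higher and 1 lower without KO treated library 1 or 2 or KO untreated library 2 or 3. Gch1, which makes the first step of the tetrahydrobiopterin cofactor of nitric oxide synthases, had 148, 153 and 158 CPM in KO treated libraries, against 64.3, 60.7 and 47.7 CPM in KO untreated ones. In WT cells it had 189.5, 148 and 178 CPM treated, against 86.1, 72.5 and 78.8 CPM untreated. It rose by 1.41 ± 0.13 in KO cells (adjusted p = 1.37e-05) and 1.12 ± 0.13 in WT cells (adjusted p = 0.000106, edgeR). Slc7a2, a cationic amino acid transporter that brings in arginine, was scarce, at 3.06, 4.87 and 4.49 CPM in KO treated, against 0.279, 0.366 and 0.237 CPM in KO untreated libraries. It had 4.31, 2.73 and 1.85 CPM in WT treated, against 0.213, 0.461 and 0 CPM in WT untreated libraries. Its fitted rise was 3.79 ± 0.63 in KO cells (adjusted p = 0.000999) and 3.64 ± 0.65 in WT cells (adjusted p = 0.00234, edgeR). Nosip, an interactor of endothelial nitric oxide synthase, fell by -0.70 ± 0.12 in KO and -0.57 ± 0.12 in WT cells. KO against WT, none of the 13 was higher, and 2 were lower after bacteria (Asl and Slc7a1) and 3 untreated (Ass1, Asl and Gch1). Over all tested genes 9.21% were higher and 4.89% lower after bacteria, and 9.50% and 3.46% untreated. After bacteria none was called without KO treated library 3 or WT treated library 3, and untreated 1 without WT untreated library 3.

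Ass1, which with Asl regenerates arginine from citrulline, was one of those lower in untreated KO cells, at 215, 228 and 237 CPM, against 301, 422 and 404 CPM in untreated WT cells. The difference was -0.73 ± 0.18 (adjusted p = 0.0182, edgeR), and the call was lost without WT untreated library 2 (-0.68, adjusted p = 0.0555) or 3 (-0.72, adjusted p = 0.0587). Asl was lower in untreated KO cells by -0.44 ± 0.10 (adjusted p = 0.013, edgeR), a call that held for every left-out library. With library totals alone the call was lost (-0.36, adjusted p = 0.0549, edgeR).

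Among 23 genes of itaconate, citrate and succinate handling, 1 rose and 3 fell with bacteria in each genotype. Over all tested genes 11.6% were called higher and 11.5% lower in KO cells, and 10.6% and 8.07% in WT cells. The list medians were -0.14 in KO and -0.01 in WT cells. In KO cells 1 fell without KO treated library 2 or KO untreated library 2 or 3. In WT cells none rose without WT treated library 1 or 3 or WT untreated library 2 or 3. In WT cells none fell without WT treated library 1 or WT untreated library 2, and 1 without WT treated library 2, WT untreated library 1 or 3 or KO untreated library 2. Slc25a1, the mitochondrial citrate carrier, was the one that rose, by 0.63 ± 0.14 in KO cells (adjusted p = 0.00794, edgeR). Hps3, a subunit of the BLOC-2 complex of lysosome-related organelles, fell by -0.82 ± 0.13 in KO cells (adjusted p = 0.000969, edgeR). KO against WT, 4 of the 23 were higher after bacteria and 5 untreated, and none was lower. Over all tested genes 9.21% were higher and 4.89% lower after bacteria, and 9.50% and 3.46% untreated. Idh1, the cytosolic isocitrate dehydrogenase, differed by 0.96 ± 0.27 after bacteria and 1.15 ± 0.26 untreated, and Rab32 by 1.36 ± 0.34 after bacteria (adjusted p at most 0.0338, edgeR). After bacteria none of the 4 was called without KO treated library 2 or 3 or WT treated library 3, and 1 gene of the list without WT treated library 1. Untreated, none was called without KO untreated library 3 or WT untreated library 1, 1 without WT untreated library 2 or 3, and 3 without KO untreated library 2.

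Of 27 antioxidant genes, 3 rose and 3 fell with bacteria in KO cells, beside 11.6% and 11.5% of all tested genes. In WT cells 0 rose and 3 fell, beside 10.6% and 8.07%. The list medians were 0.00 in KO and -0.21 in WT cells. Without KO treated library 2 or KO untreated library 3 none rose in KO cells. Txnip, an inhibitor of thioredoxin, fell by -1.31 ± 0.21 in KO cells (adjusted p = 0.00087, edgeR). KO against WT, 6 were higher and 4 lower after bacteria, and 4 higher and 5 lower untreated. Over all tested genes 9.21% were higher and 4.89% lower after bacteria, and 9.50% and 3.46% untreated. After bacteria 3 were higher without KO treated library 2 or 3 or WT treated library 1, and untreated 2 were lower without WT untreated library 2. Prdx2, a peroxiredoxin of the cytosol that is abundant in red cells, had 85.7, 94.8 and 109 CPM in KO treated libraries, against 48.7, 45.8 and 35.7 CPM in WT treated ones. Its difference was 1.16 ± 0.14 (adjusted p = 0.00054, edgeR), beside erythroid marker sums that were higher in every KO library. Prdx5, a peroxiredoxin of mitochondria and peroxisomes, had 54.9, 102 and 84.9 CPM in KO treated libraries, against 27.8, 24.3 and 22.6 CPM in WT treated ones, a difference of 1.69 ± 0.18 (adjusted p = 0.000305, edgeR).

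Slc7a11, the cystine importer that feeds glutathione synthesis, was lower in KO libraries. It had 366, 420.4 and 332 CPM in KO treated libraries, against 637, 773 and 1030 CPM in WT treated ones, a difference of -1.13 ± 0.20 (adjusted p = 0.00413, edgeR). Untreated libraries had 306, 357 and 236 CPM in KO, against 646, 672 and 913 CPM in WT, a difference of -1.31 ± 0.20 (adjusted p = 0.00183, edgeR). The groups did not overlap at either treatment. Sod3, the secreted superoxide dismutase, was near 0 in WT cells, at 0, 0.116 and 1.23 CPM treated, against 6.77, 15.0 and 36.7 CPM in KO treated libraries.

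Of 19 regulators and receptors known to act on the members, 9 rose and 1 fell with bacteria in KO cells. Over all tested genes these shares were 11.6% and 11.5%. In WT cells 9 rose and 2 fell, beside 10.6% and 8.07% of all tested genes. The list medians were 0.43 in KO and 0.37 in WT cells. Stat2, a factor of type I interferon signalling, had 408, 541 and 630.2 CPM in KO treated libraries, against 83.6, 75.9 and 71.0 CPM in KO untreated ones. In WT cells it had 422, 447 and 454 CPM treated, against 87.4, 119.7 and 85.3 CPM untreated. It rose by 2.78 ± 0.17 in KO cells (adjusted p = 9.44e-07) and by 2.18 ± 0.17 in WT cells (adjusted p = 7.57e-06, edgeR). Myd88, the adaptor of most Toll-like receptors, rose by 1.65 ± 0.16 in KO and 1.57 ± 0.16 in WT cells. Irf1 and Irf9, factors of interferon responses, rose by 1.62 ± 0.15 and 1.61 ± 0.14 in KO cells (adjusted p at most 4.63e-05 for these and Myd88, edgeR).

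KO against WT, 3 regulators were higher and 1 lower after bacteria, and 3 higher and 2 lower untreated. Over all tested genes 9.21% were higher and 4.89% lower after bacteria, and 9.50% and 3.46% untreated. After bacteria 5 were higher and 3 lower without KO treated library 1, and none was lower without any other 1 library except WT treated library 2. Untreated, 4 were lower without KO untreated library 1, and 1 without KO untreated library 2 or 3 or WT untreated library 2 or 3. Cebpb and Tlr4 were among the higher ones at both treatments. Nfe2l2, a factor that drives many antioxidant genes, was lower in untreated KO cells by -0.53 ± 0.12 (adjusted p = 0.0104, edgeR). Cebpb, a factor of myeloid cells, had 75.0, 177 and 179 CPM in KO treated libraries, against 19.6, 10.9 and 16.4 CPM in WT treated ones. The difference was 3.20 ± 0.34 after bacteria (adjusted p = 0.000305, edgeR). Untreated libraries had 101, 134 and 156 CPM in KO, against 21.4, 30.7 and 29.2 CPM in WT, a difference of 2.26 ± 0.32 (adjusted p = 0.00128, edgeR). Tlr4, the receptor of lipopolysaccharide, was higher in KO treated than in WT treated cells by 3.11 ± 0.57 (adjusted p = 0.00455, edgeR). Monocyte and neutrophil marker sums were higher in the same KO libraries. Of 9 genes of other oxidases 1 was tested and none was called.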

How the data were processed

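RNA of 12 libraries was measured as raw read counts per gene, which the authors deposited with gene positions and lengths. Per the submitters' processing notes, CASAVA 1.8 and HISAT2 (version not given) with mm10 were used. Which program counted reads, whether it used strand and which annotation it read is not given in the sources used here. All members, lists and tests were chosen with earlier results of these data known.

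Counts were tested with edgeR 4.0.16 in R 4.3.3 (TMM factors, filterByExpr with a minimum count of 10, robust quasi-likelihood fit, 1 term per group over all 12 libraries), with Benjamini-Hochberg adjustment per comparison over 14293 genes. Filtering removed Nos2. Each standard error is the size of the log2 fold change divided by the root of its F statistic. CPM use TMM-scaled library sizes, and TPM the deposited gene lengths. Values by number are differences of log2 CPM with a prior count of 2. Between genotypes they set KO against WT libraries of the same number, which the labels do not match. Deviations of these libraries correlated at r of 0.0804 to 0.324. Described are the 8 members, any listed gene with its values, and per list and comparison up to 4 called genes of at least 5 mean CPM by size of change. Part of these is printed, and some listed genes are not reported here. The tests were tried on simulated counts. Libraries of 1 genotype and number deviated together across treatment (r of 0.223 to 0.533 in 6 pairs), so numbers were taken to pair them. The labels do not state it, and this range overlaps that of KO with WT libraries given above. The main fit leaves the pairing out, and only the fits with a block use it. No 2 libraries of a group agreed within sampling noise. Alternatives were other scalings, DESeq2 1.42.0, other filters, only the groups compared, blocks and left-out libraries. Promoters are RefSeq's, with entries for 5 of 8 members. Figures were drawn with matplotlib 3.10.9 in Python 3.11.15.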

Additional observations from a re-analysis of the deposited data

Results flagged for a closer look

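Sod2 was higher in the treated than in the untreated KO library of all 3 numbers, and lower in the treated than in the untreated WT library of all 3, if only by -0.02 and -0.01 for numbers 1 and 3 on the log2 scale. The test of the difference between the responses gave 0.97 ± 0.23 (SE) with an adjusted p of 1.00 in edgeR, and adjusted p from 0.031 to 1.00 with single libraries left out.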

How the results depend on the processing

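Responses of Acod1, Cybb and Ncf1 in both genotypes, of Sod2 in KO cells, and the differences of Rac2 at both treatments, Sod2 after bacteria and Cybb untreated kept their direction and call in every alternative run. With library totals alone, the median over genes moved to -0.38 in the KO and -0.35 in the WT response, and 5721 genes (1030 higher, 4691 lower, against 1654 and 1638) and 5024 genes (799 higher, 4225 lower, against 1522 and 1154) were called, with 5 members called in each genotype, of which Cyba fell in KO (-0.34) and Cyba (-0.47) and Sod2 (-0.45) in WT cells. Ncf4 untreated lost its call there (-0.54, adjusted p = 0.0584). In the genotype differences that scaling gave 1631 higher and 312 lower genes after bacteria, against 1317 and 699, and 1669 and 308 untreated, against 1358 and 494. With upper-quartile factors the medians of the responses were -0.12 and -0.11. With the replicate block within genotype 4986 genes were called in KO, 4561 in WT and 41 for the difference between responses, and beyond Rac2 in WT cells and Ncf4 after bacteria no block changed a member's call. With only the groups compared, 1074 genes were called after bacteria, and Cybb lost its call there (adjusted p = 0.0758); with no filter Acod1 lost its own (adjusted p = 0.126). For the difference between responses DESeq2 called 6 genes and no filter 2. With single libraries left out, called genes ran from 2132 to 3651 in the KO response, 1509 to 2936 in the WT response, 1028 to 2888 after bacteria, 863 to 2123 untreated and 0 to 8 for the difference, and called members from 2 to 5 after bacteria, 2 to 4 untreated and 0 to 1 for the difference. Except without KO treated library 2 or 3, Nos2 passed the filter in these runs. It was then called higher in KO after bacteria (adjusted p from 0.00637 to 0.0416, edgeR), and the 5 includes it.

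Values near 0 changed sign, and none was called where it did. Cyba in the KO response was 0.030 with DESeq2 size factors and in its Wald test, 0.011 with the stricter filter and with only the groups compared, and -0.037 to 0.034 with single libraries or replicate 1 left out. Untreated, Cyba was -0.025 with DESeq2 size factors and in its Wald test, -0.046 with upper-quartile factors, -0.0077 with the stricter filter, -0.0079 with only the groups compared, and -0.094 to -0.0049 with libraries or replicate 1 left out. With library totals Ncf4 was -0.076 in the KO and -0.27 in the WT response, and Rac2 -0.19 in the KO response. Ncf4 in the WT response was -0.026 with upper-quartile factors and -0.015 to 0.079 with libraries or replicate 1 left out. Left-out libraries gave Rac2 -0.079 to 0.41 in the KO response and -0.43 to 0.076 for the difference between responses. The causes were not tested. Depth limits Nos2, with at most 33 counts in a library.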

Other observations

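Genes whose log2 CPM profile over the 12 libraries was nearest to that of a member, after centring each on its own mean, were read from 9439 genes of at least 5 mean CPM, with the root mean square difference as the measure and no test. All profiles share the libraries, and genes that follow treatment or genotype are near each other for that reason alone. Nearest to Cybb were Dck at 0.21, a kinase of deoxynucleosides, Slfn3 at 0.21 and BE692007 at 0.24, where Cybb itself had an SD of 1.08. Nearest to Ncf1 were Sema7a at 0.10, a membrane-anchored semaphorin, Pdlim7 at 0.12 and Birc3 at 0.14, an inhibitor of apoptosis, with an SD of 0.52 for Ncf1. Rac2 lay closest to Cfp at 0.18, the complement factor properdin, Cdt1 at 0.21 and Zfp36l2 at 0.22, with an SD of 0.91 of its own. Acod1, with an SD of 2.58, had no gene nearer than Slfn1 at 0.78, followed by Zbp1 at 0.84, a nucleic acid sensor induced by interferon, and Tgtp1 at 0.88. For Sod2, with an SD of 0.54, Rrbp1 at 0.18, 6530402F18Rik at 0.22 and Sbno2 at 0.23 came nearest. Ncf4, with an SD of 0.34, was nearest to Gripap1, Etv3 and Cdc14a at 0.12 each. Cyba, with an SD of 0.10, was nearest to Hnrnpu at 0.05, Bag6 at 0.05 and Ybx1 at 0.06.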
